A study of Homo sapiens with 18 samples.

Results

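The IFIT genes (interferon-induced proteins with tetratricopeptide repeats) and the IFITM genes (interferon-induced transmembrane proteins) were examined in EA.hy926 cells before and after poly(I:C). Members were taken by symbol from the gene count matrix: IFIT1, IFIT2, IFIT3, IFIT5, IFITM1, IFITM2 and IFITM3, that is 7 of 62754 genes listed, 4 of them IFIT and 3 IFITM. EA.hy926 is a human umbilical vein endothelial line made by fusion with A549 lung epithelial cells, and all 18 libraries came from it. Cells received transfection reagent without siRNA (Mock), 10 nM of non-targeting siRNA (siNT) or 10 nM of a pool of 3 siRNAs against ELMO1 (siELMO1). They were lysed 48 h later without further treatment (0 h), or were given poly(I:C), 1 μg per ml, and lysed after another 24 h (24 h), with 3 biological replicates in each of the 6 groups. All groups were kept in low serum overnight before the 0 h point, and none was left without transfection reagent. No 24 h library without poly(I:C) was analysed here, so 24 h of further culture and 24 h of poly(I:C) cannot be told apart.

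Poly(I:C) stands in for the double-stranded RNA that viruses make. Toll-like receptor 3 and the cytosolic receptors RIG-I and MDA5 sense it and switch on type I and type III interferons, and secreted interferon then acts through STAT2 and IRF9 on the interferon-stimulated response element in the promoters of many antiviral genes. IFIT genes are among the most inducible of these, partly because IRF3 can act on the same element before interferon is made. IFIT1 binds RNA whose cap lacks ribose methylation and blocks its translation, IFIT3 binds and stabilises IFIT1, IFIT2 joins the same complexes and has been linked to cell death, and IFIT5 acts alone on RNA with a triphosphate end. IFITM proteins are small membrane proteins that hinder the fusion of viral and cellular membranes. IFITM1 lies mostly at the cell surface, while IFITM2 and IFITM3 lie mostly in endosomes.

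The IFIT genes lie next to each other on the plus strand of chromosome 10 and the IFITM genes on chromosome 11 (GRCh38, Gencode annotation). In order, IFIT2 spans chr10:89283694-89309271, IFIT3 chr10:89327307-89377473, IFIT1 chr10:89392546-89406487 and IFIT5 chr10:89414568-89421605. IFITM2 spans chr11:303655-309397 and IFITM1 chr11:310041-315272 on the plus strand, and IFITM3 chr11:319676-329475 on the minus strand. RefSeq promoters of GRCh38.p14, from 250 bases before to 50 bases after the start, were given for 5 members, IFIT3 with 2 of them. The core of the interferon-stimulated response element was searched as GAAA, any 2 bases, GAAA on both strands. All 6 promoters of the 5 members held it, against 1255 of 35116 promoters (3.57%) in the whole table and 12 of 17 for the other interferon-stimulated genes listed further on. A match is a description of the letters and not a shown binding site. The windows of 30 bases below are shown because these genes moved together after poly(I:C). Each is written 5′ to 3′ on the gene's strand, the core is in capitals, and it reads TTTC, 2 bases, TTTC where it lies on the opposite strand. Cores are placed by the distance of their first base from the start.

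IFIT1, chr10:89392497-89392526, plus strand, core 116 bases before the start: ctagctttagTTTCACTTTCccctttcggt
IFIT3 upstream promoter, chr10:89327865-89327894, plus strand, core 122 bases before the start: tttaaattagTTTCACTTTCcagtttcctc
IFIT3 downstream promoter, chr10:89332425-89332454, plus strand, core 94 bases before the start: acagattctgTTTCAGTTTCccctcaagag
IFIT5, chr10:89414513-89414542, plus strand, core 45 bases before the start: ttctattaagTTTCGGTTTCtgaagcttac
IFITM1, chr11:313990-314019, plus strand, core 40 bases before the start: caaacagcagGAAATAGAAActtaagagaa
IFITM3, chr11:320893-320922, minus strand, core 52 bases before the start: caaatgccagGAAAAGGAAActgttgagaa

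Estimated gene counts per library ran from 40.4 to 73.9 in units of 1e+06. ELMO1, the targeted gene, was low throughout: 2.66 to 3.32 CPM (counts per 1e+06 counts, after TMM scaling) in Mock and siNT at 0 h, 1.52 to 3.59 in both at 24 h, 0.299 to 0.419 in siELMO1 at 0 h and 0.155 to 0.360 in siELMO1 at 24 h. It fell 8.65-fold against siNT at 0 h (adjusted p = 2.74e-08) and 12.5-fold at 24 h (adjusted p = 1.43e-08). Among 12 endothelial markers the summed level was 2959 to 3202 CPM at 0 h and 2667 to 3216 CPM at 24 h in siELMO1, and at most 2395 CPM in the other groups, with CLDN5 and EMCN at or near 0 everywhere. Of the lung epithelial markers KRT8 and KRT18 made up nearly all of the 9-gene sum (485 to 1089 CPM), and CDH1, NKX2-1 and SFTPC were at 0 in every library. Of 5 leukocyte markers CD3E was at 0 in every library and the sum, mostly CD68, rose from 35.5 to 100.4 CPM at 0 h to 140 to 285 CPM at 24 h. In siELMO1 at 0 h, replicates 2 and 3 had 4.02% and 3.95% of counts from mitochondrially encoded genes and replicate 1 had 1.86%, while the other libraries lay between 1.31% and 2.42%. Replicate 1 also stood apart from these 2 over all genes: chi-square per degree of freedom between libraries was 70.9 and 79.1 for it against replicates 2 and 3, 10.2 between replicates 2 and 3, and at most 29.2 for any pair of the other groups. The part of these differences in the results below was not tested.

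All 7 members rose at 24 h in all 3 transfections. The share of all genes tested that were higher at an adjusted p under 0.05 was 30.7% in Mock, 28.6% in siNT and 28% in siELMO1. All 7 also rose more than 2-fold, against 8.6%, 6.45% and 7.71% of genes. The members' median log2 fold change was 6.02 in Mock, 4.51 in siNT and 5.74 in siELMO1, where the median over all genes tested was 0.01, 0.01 and -0.00. Together the 7 genes took 0.0335% ± 0.0007 of all counts in Mock at 0 h and 0.632% ± 0.0372 at 24 h (SD, n = 3). In siNT the share went from 0.0468% ± 0.0017 to 0.416% ± 0.0674, and in siELMO1 from 0.0477% ± 0.0051 to 0.541% ± 0.0476. In bulk RNA a higher share of responding cells and more RNA per responding cell cannot be told apart.

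IFIT1 had the steepest rise of the members in each transfection. At 0 h it stood at 8.64, 7.19 and 6.87 CPM in Mock, 6.22, 5.97 and 7.11 in siNT and 6.17, 6.38 and 4.55 in siELMO1. At 24 h it stood at 1084, 1107 and 1190 CPM in Mock, 754, 705 and 952 in siNT and 1020, 979 and 1137 in siELMO1. Every 24 h library was thus far above every 0 h library. The rise was 149-fold in Mock (log2 7.22, SE 0.15, adjusted p = 5.09e-17), 125-fold in siNT (log2 6.96, SE 0.15) and 183-fold in siELMO1 (log2 7.52, SE 0.15).

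IFIT2 and IFIT3, the partners of IFIT1, reached the highest CPM of the family in Mock. IFIT2 went from 14.5, 14.3 and 14.9 CPM to 1303, 1403 and 1530 in Mock, a 96.9-fold rise (log2 6.60, SE 0.18). In siNT it went from 16.7, 15.0 and 13.8 CPM to 601, 539 and 869, a 44.1-fold rise. In siELMO1 it went from 17.0, 18.5 and 17.3 CPM to 1038, 1015 and 1371, a 65.0-fold rise. The siNT libraries at 24 h were all below the Mock and siELMO1 libraries. IFIT3 went from 29.2, 27.2 and 28.0 CPM to 1711, 1785 and 1973 in Mock, a 64.8-fold rise (log2 6.02, SE 0.12). In siNT it went from 40.6, 42.5 and 42.6 CPM to 857, 835 and 1176, a 22.8-fold rise. In siELMO1 it went from 24.3, 23.6 and 26.0 CPM to 1247, 1255 and 1444, a 53.3-fold rise. IFIT3 was therefore highest in siNT before poly(I:C) and lowest in siNT after it, and neither set of siNT libraries overlapped the other transfections. Of all genes tested, 35.4% had every siNT library above Mock at 0 h, and 33.1% had every siELMO1 library below siNT. At 24 h 28.8% had every siNT library below Mock, and 29.1% had every siELMO1 library above siNT.

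IFIT5, which works outside the IFIT1 complex, rose least among the IFIT genes. It went from 10.8, 13.3 and 11.7 CPM to 207, 199 and 213 in Mock (17.2-fold), and from 15.9, 16.4 and 17.4 CPM to 161, 154 and 181 in siNT (9.96-fold). In siELMO1 it went from 10.7, 8.24 and 9.65 CPM to 163, 155 and 183 (17.4-fold). Its 24 h levels in siNT and siELMO1 overlapped, and both lay below Mock.

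Among the IFITM genes, IFITM1 was scarce at 0 h, with 3.20, 5.03 and 4.73 CPM in Mock, 6.34, 7.83 and 6.14 in siNT and 6.03, 5.32 and 3.71 in siELMO1. At 24 h it had 338, 305 and 369 CPM in Mock, 205, 192 and 306 in siNT and 394, 378 and 456 in siELMO1. The rise of this cell-surface member was 77.6-fold in Mock (log2 6.28, SE 0.22), 34.7-fold in siNT and 80.6-fold in siELMO1, within the range of the IFIT genes in each.

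IFITM2 and IFITM3, the endosomal members, were already abundant at 0 h and rose far less. IFITM2 went from 94.7, 90.8 and 91.6 CPM to 253, 270 and 274 in Mock, which was 2.88-fold (log2 1.52, SE 0.08). In siNT it went from 129, 139 and 128 CPM to 324, 334 and 400 (2.67-fold), and in siELMO1 from 109, 140 and 129 CPM to 272, 299 and 288 (2.27-fold). IFITM2 was the only member whose 24 h level was highest in siNT, with no overlap with the other transfections. At 24 h 28.6% of all genes tested had every siNT library above Mock, and 30.3% had every siELMO1 library below siNT. IFITM3 went from 168, 174 and 185 CPM to 1099, 1160 and 1175 in Mock (6.52-fold, log2 2.70, SE 0.08). In siNT it went from 250, 260 and 239 CPM to 912, 981 and 1057 (3.94-fold), and in siELMO1 from 244, 304 and 317 CPM to 991, 1069 and 1084 (3.64-fold). The largest adjusted p of the 21 rises was 1.57e-09, for IFITM2 in siELMO1, and no rise lost its call under any alternative tried.

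**Figure D1:**
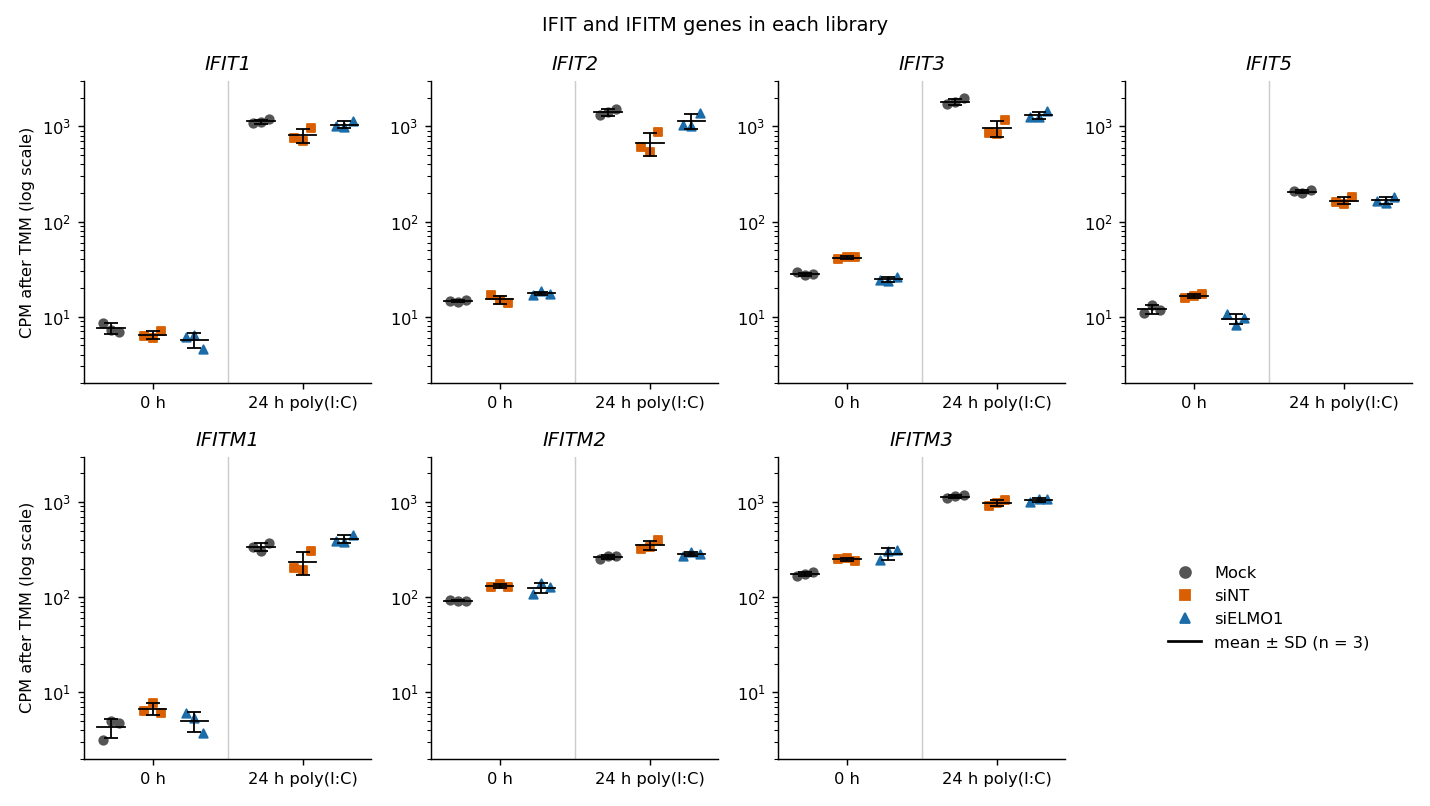
CPM after TMM scaling (log axis) of each IFIT and IFITM gene in the 18 libraries, at 0 h and 24 h for Mock, siNT and siELMO1, with the mean ± SD of 3 libraries. All 24 h points lie above all 0 h points of the same gene, and the siNT points at 24 h are the lowest for IFIT1, IFIT2 and IFIT3 and the highest for IFITM2.

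**Figure D2:**
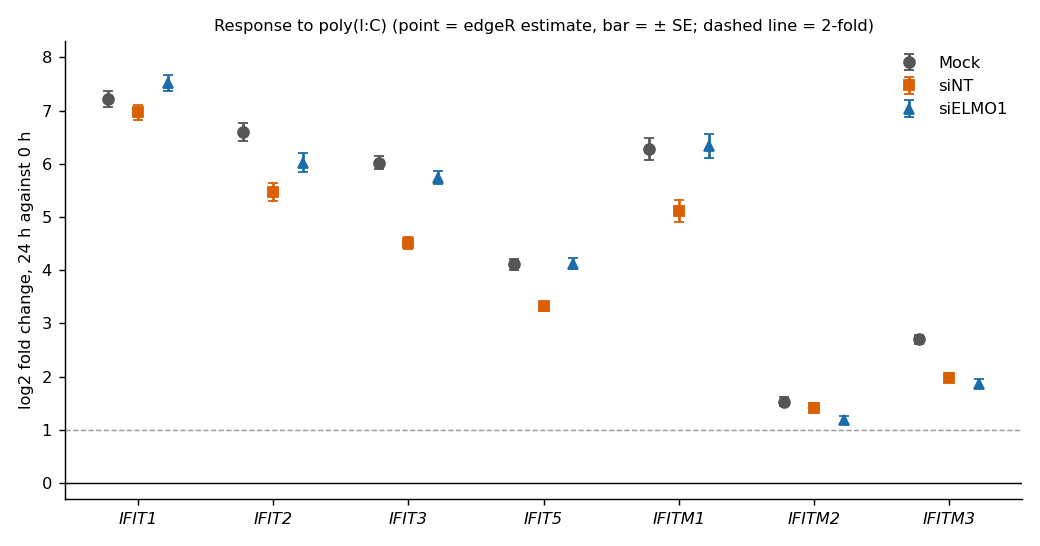
log2 fold change at 24 h against 0 h in each transfection, with its SE from the edgeR fit. IFIT1 rose most (6.96 to 7.52), IFITM2 least (1.18 to 1.52), and for the 4 IFIT genes and IFITM1 the siNT point is below the other two.

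Levels of different genes were set beside each other as CPM per kb of merged exons. At 0 h IFITM3 and IFITM2 led in every transfection, with 61.8 ± 2.90 and 57.5 ± 1.28 CPM per kb in Mock (SD, n = 3). IFIT3 followed with 5.55 ± 0.20, IFIT2 with 3.37 ± 0.07, IFIT5 with 2.74 ± 0.29, IFITM1 with 2.59 ± 0.59 and IFIT1 with 1.64 ± 0.20. Only IFIT5 and IFITM1 overlapped between libraries in that order. At 24 h in Mock the order was IFITM3 (403 ± 14.2), IFIT3 (360 ± 26.7), IFIT2 (326 ± 26.3), IFIT1 (244 ± 12.0), IFITM1 (202 ± 19.0), IFITM2 (165 ± 6.90) and IFIT5 (47.2 ± 1.68), with IFITM3 overlapping IFIT3 and IFIT3 overlapping IFIT2. IFIT1 thus passed from the last place to above IFITM2. In siNT at 24 h IFITM2 (220 ± 26.0) stood second and its libraries overlapped those of IFIT3 (189 ± 37.6), whereas in siELMO1 it stood sixth (178 ± 8.63). The order rests on the length used: with the length of the transcript that took most counts, IFITM1 (509 CPM per kb) came above IFIT2 (416) and IFITM2 (264) above IFIT1 (262) in Mock at 24 h, and IFITM3 led with 1874. With that length IFITM2 (350) came below IFIT3 (400) and IFITM1 (354) in siNT at 24 h, so it was not second. In siELMO1 at 24 h it (285) came above IFIT1 (243).

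The make-up of each family shifted with poly(I:C). Of the summed IFIT level per kb in Mock, IFIT5 fell from 20.6% ± 2.28 at 0 h to 4.84% ± 0.27 at 24 h, while IFIT1 went from 12.3% ± 1.37 to 25.0% ± 0.47 (SD, n = 3). IFIT3 was the largest part at 0 h in each transfection (39.4% to 48.7% on average), and at 24 h it was 36.6% to 37.1% in Mock, 33.3% to 34.5% in siNT and 32.0% to 33.9% in siELMO1. IFIT1 took 31.5% ± 1.03 in siNT at 24 h, with a lowest library of 30.3% against a highest of 25.5% in Mock and 29.7% in siELMO1. Of the summed IFITM level per kb, IFITM1 made up 1.69% to 2.33% at 0 h on average, and at 24 h 26.3% ± 1.85 in Mock, 19.7% ± 2.85 in siNT and 31.0% ± 2.04 in siELMO1. IFITM2 went the other way, from 47.2% ± 1.73 to 21.5% ± 0.58 in Mock, and stood at 31.1% ± 0.13 in siNT at 24 h, where its highest library was 22.2% in Mock and 23.6% in siELMO1. These shares are descriptions and were not tested. They too rest on the length used. In Mock at 0 h IFITM2 and IFITM3 stood at 57.5 and 61.8 CPM per kb of merged exons. With the length of the transcript that took most counts they stood at 91.8 and 288, so their shares would differ.

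**Figure D3:**
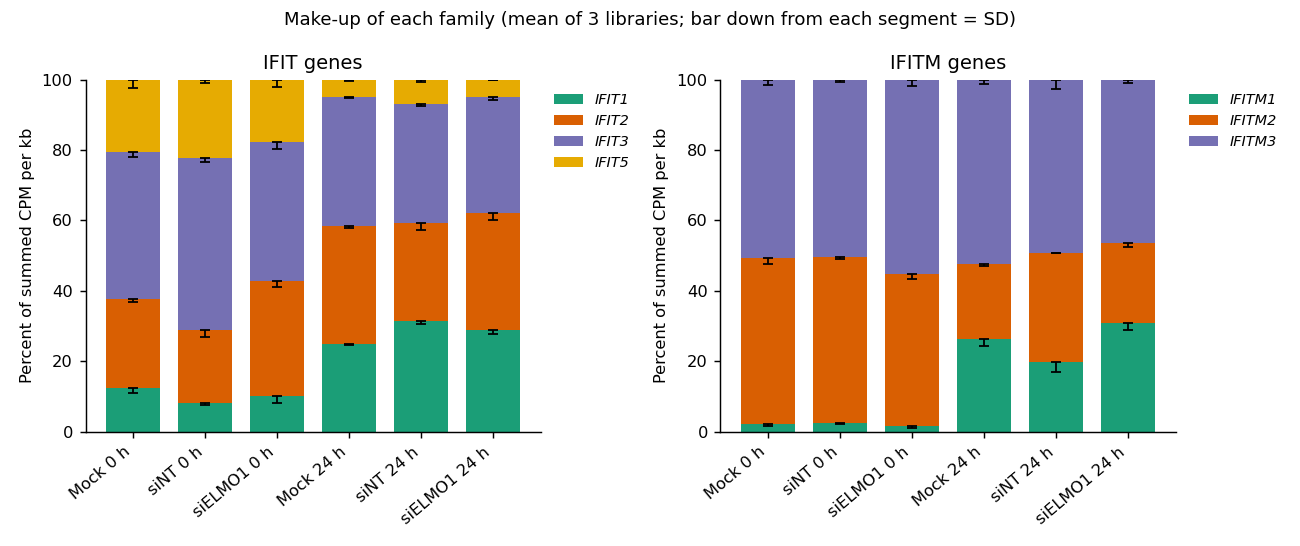
Percent of the summed CPM per kb of the IFIT genes (left) and the IFITM genes (right) in each of the 6 groups, as stacked means of 3 libraries with the SD drawn down from the top of each segment. IFIT5 shrinks and IFIT1 grows from 0 h to 24 h, and IFITM1 grows from about 2% to between 19.7% and 31.0%.

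Estimated transcript counts placed nearly all of IFIT1, IFIT2 and IFIT5 on 1 transcript each. At 24 h IFIT1-201 held 98.1% to 98.5% of the counts on average, IFIT5-201 95.5% to 98.5% and IFIT2-201 91.1% to 94.5%. IFIT3 was split over 3 main transcripts. IFIT3-202 starts at the upstream RefSeq start, IFIT3-206 starts further upstream, and IFIT3-201 starts 45 bases before the downstream one. IFIT3-201 held 28.9% ± 8.09 of the IFIT3 counts in Mock at 0 h, 10.4% ± 4.86 in siNT and 26.8% ± 4.30 in siELMO1 (SD, n = 3). At 24 h it held 42.8% ± 2.09 in Mock (40.4% to 44.2%), 32.8% ± 1.09 in siNT (31.6% to 33.7%) and 24.8% ± 1.76 in siELMO1 (23.0% to 26.5%). IFIT3-202 was ordered the other way at 24 h, with 35.4% ± 4.91 in Mock, 45.1% ± 2.83 in siNT and 50.9% ± 4.10 in siELMO1. IFIT3-206 held 28.7% ± 7.25 in Mock, 38.4% ± 3.57 in siNT and 29.3% ± 11.2 in siELMO1 at 0 h, and 19.0% to 23.2% on average at 24 h. For IFITM1, IFITM1-202 and IFITM1-212 together held most counts at 0 h. The Mock libraries at 0 h had only 209 to 372 IFITM1 counts, and IFITM1-202 held 19.4% to 86.1% of them. IFITM1-229, which starts at the same base as IFITM1-202, went from 1.44% ± 1.48 to 51.8% ± 11.6 in Mock. With that spread at 0 h, a change of leading transcript is not interpreted. For IFITM2 the split varied widely between libraries of 1 group (IFITM2-205 held 15.5% to 95.9% in siNT at 0 h) and is not interpreted. These are estimates from reads that transcripts share, and no test was run on them.

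Before poly(I:C), the non-targeting siRNA raised 5 of 7 members over Mock and lowered none, against 27.6% of genes tested that were higher and 24% that were lower. The members' median log2 difference was 0.51, beside 0.03 over all genes. IFIT3 was 1.49-fold higher (log2 0.58, SE 0.10, adjusted p = 1.47e-04), IFIT5 1.38-fold (adjusted p = 3.95e-04), IFITM2 1.43-fold (adjusted p = 5.23e-05) and IFITM3 1.42-fold (log2 0.51, SE 0.08, adjusted p = 3.63e-05), with no overlap between libraries, as in 35.4% of all genes tested in this direction. IFITM1 was 1.55-fold higher (log2 0.64, SE 0.21, adjusted p = 0.0170) without overlap, a call that was lost without Mock 0 h replicate 1 (0.43, adjusted p = 0.117) or siNT 0 h replicate 2 (0.52, adjusted p = 0.0778), and with limma-voom (adjusted p = 0.112). IFIT1 (log2 -0.23, adjusted p = 0.160) and IFIT2 (log2 0.06, adjusted p = 0.768) did not pass, and their libraries overlapped. The sign of the IFIT2 difference turned to -0.000451 with library totals in place of TMM scaling.

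Set against siNT at 0 h, siELMO1 had 2 members lower and 1 higher, where 31.3% of genes tested were lower and 31.3% higher. IFIT3 was 1.70-fold lower (log2 -0.76, SE 0.10, adjusted p = 4.92e-06) and IFIT5 1.72-fold lower (log2 -0.79, SE 0.10, adjusted p = 1.40e-06), in both cases without overlap, as in 33.1% of all genes tested in this direction. Without siELMO1 0 h replicate 1 the differences were -0.75 for IFIT3 and -0.88 for IFIT5, and both kept their call. IFIT3 and IFIT5 were also higher in siNT than in Mock (0.58 and 0.47), while siELMO1 against Mock was -0.19 and -0.32 for them. IFITM3 was the only member called higher (log2 0.21, SE 0.08, adjusted p = 0.0296) and its libraries overlapped. That call was lost when either of siNT 0 h replicates 1 and 3 was left out (0.21 and 0.18, adjusted p = 0.0622 and 0.103), or either of siELMO1 0 h replicates 2 and 3 (0.17 and 0.13, adjusted p = 0.112 and 0.171). These last 2 libraries are the ones with the raised mitochondrial share. IFIT1, IFIT2, IFITM1 and IFITM2 did not pass (log2 -0.18, 0.21, -0.41 and -0.07), and the median over the 7 was -0.18, beside 0.00 over all genes. IFITM1 passed without siNT 24 h replicate 3 (-0.41, adjusted p = 0.0455).

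Against Mock at 0 h, siELMO1 had 2 members higher and 2 lower, where 27.9% and 22.4% of genes tested were higher and lower. IFITM3 was 1.64-fold higher (log2 0.71, SE 0.08, adjusted p = 6.92e-07) and IFITM2 1.36-fold higher (adjusted p = 2.14e-04), both without overlap, as in 30.9% of all genes tested in this direction. Without siELMO1 0 h replicate 1 the differences were 0.82 for IFITM3 and 0.54 for IFITM2, and both kept their call. IFIT1 was 1.32-fold lower (log2 -0.41, SE 0.14, adjusted p = 0.0200) and IFIT5 1.25-fold lower (log2 -0.32, SE 0.10, adjusted p = 0.0117). The IFIT1 call was lost without Mock 0 h replicate 1 (-0.33, adjusted p = 0.0795) or siELMO1 0 h replicate 3 (-0.27, adjusted p = 0.121). The IFIT5 call was lost without Mock 0 h replicate 2 (-0.26, adjusted p = 0.0513) or siELMO1 0 h replicate 2 (-0.23, adjusted p = 0.0679). Both were also lost with limma-voom. IFIT2 (0.27), IFIT3 (-0.19) and IFITM1 (0.22) did not pass, although IFIT2 and IFIT3 did without siNT 24 h replicate 3 (adjusted p = 0.0453 and 0.0236) and with only the libraries of the groups compared (adjusted p = 0.0285 and 0.0185), and IFIT3 did with library totals (adjusted p = 0.0448). The median over the members was 0.22, beside 0.04 over all genes. The 3 comparisons at 0 h, and likewise the 3 at 24 h, share libraries and are not independent of each other.

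At 24 h the siNT cells had 6 of 7 members lower than Mock and 1 higher, where 24.9% of genes tested were lower and 25.2% higher. The median over the members was -0.49, beside -0.00 over all genes. IFIT2 was 2.11-fold lower (log2 -1.08, SE 0.14, adjusted p = 5.29e-06), IFIT3 1.91-fold lower (log2 -0.93, SE 0.10, adjusted p = 6.19e-07), IFIT1 1.40-fold lower (adjusted p = 1.33e-03) and IFIT5 1.25-fold lower (adjusted p = 4.06e-03). In each of these 4 every siNT library was below every Mock library, as in 28.8% of all genes tested. The siNT libraries were not alike: replicate 3 was the highest of its group for all 7 members, with 869 CPM of IFIT2 against 601 and 539. IFITM1 was 1.44-fold lower (log2 -0.52, SE 0.16, adjusted p = 0.0131) with overlap, through that replicate. The IFITM1 call was lost without Mock 24 h replicate 3 (-0.46, adjusted p = 0.053), siNT 24 h replicate 1 (-0.44, adjusted p = 0.0664) or siNT 24 h replicate 2 (-0.40, adjusted p = 0.0762). IFITM3 was 1.16-fold lower (log2 -0.22, SE 0.08, adjusted p = 0.0265) and lost its call without Mock 24 h replicates 2 (-0.21) or 3 (-0.20) or siNT 24 h replicates 1 (-0.17) or 2 (-0.22), with adjusted p from 0.0628 to 0.125. IFITM2 was 1.33-fold higher (log2 0.41, SE 0.08, adjusted p = 5.03e-04). The paper reports massive death of siNT cells after poly(I:C), and far less in the other transfections. It names this death as the likely reason for the lower inflammatory expression in siNT. The part of cell death in the member differences between siNT and the other transfections was not tested.

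ELMO1 siRNA set against the non-targeting siRNA at 24 h gave 4 members higher and 1 lower, where 26% and 26.5% of genes tested were higher and lower. IFITM1 was 1.75-fold higher (log2 0.80, SE 0.16, adjusted p = 5.35e-04), IFIT2 1.71-fold (log2 0.77, SE 0.14, adjusted p = 1.56e-04), IFIT3 1.38-fold (log2 0.46, SE 0.10, adjusted p = 7.82e-04) and IFIT1 1.30-fold (log2 0.38, SE 0.11, adjusted p = 7.71e-03), all without overlap, as in 29.1% of all genes tested in this direction. IFIT1 missed the threshold without siNT 24 h replicate 2 (0.29, adjusted p = 0.0507). IFITM2 was 1.23-fold lower (log2 -0.30, SE 0.08, adjusted p = 5.13e-03). IFIT5 (log2 0.02, SE 0.08, adjusted p = 0.879) and IFITM3 (log2 0.09, SE 0.08, adjusted p = 0.341) did not pass and overlapped, and the sign of IFIT5 turned negative (-0.03) with library totals. The median of the members was 0.38, beside -0.01 over all genes.

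Between siELMO1 and Mock at 24 h, 5 of the 7 members did not pass the test. IFIT3 stayed 1.39-fold lower (log2 -0.47, SE 0.10, adjusted p = 8.08e-04) and IFIT5 1.23-fold lower (log2 -0.30, SE 0.08, adjusted p = 6.92e-03), both without overlap, where 22% of genes tested were lower and 27.7% lay below without overlap. No member was higher, where 21.6% of genes were; at an unadjusted p under 0.05 none was higher either with edgeR. IFIT1 (-0.11), IFIT2 (-0.31, adjusted p = 0.0798), IFITM1 (0.28, adjusted p = 0.181), IFITM2 (0.11) and IFITM3 (-0.13) were not called, which does not show that they were equal. With DESeq2 and limma-voom no member was higher, and IFITM1 was called (adjusted p = 0.0280) when only the libraries of these 2 groups were fitted. IFIT2 was called lower without siNT 24 h replicate 3 (adjusted p = 0.0154), a library of neither group, and without siELMO1 24 h replicate 3 (-0.46, adjusted p = 0.0137).

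**Figure D4:**
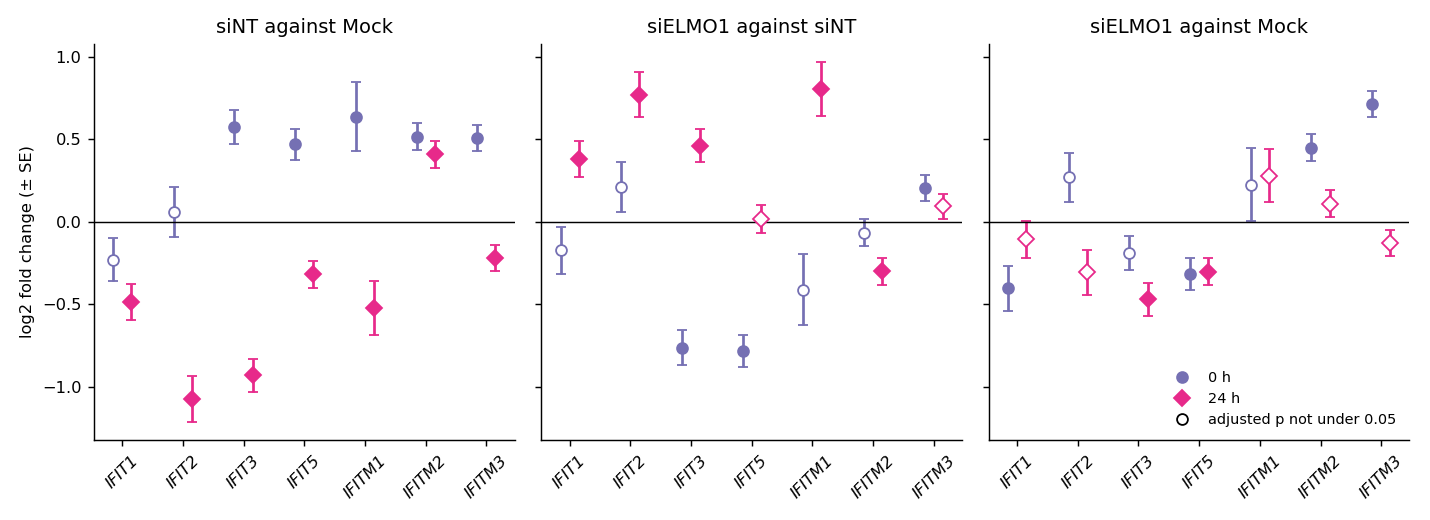
log2 fold changes between transfections at 0 h (circles) and 24 h (diamonds) with the SE of the edgeR fit, where open symbols did not reach an adjusted p under 0.05. In siNT against Mock, IFIT2, IFIT3, IFIT5, IFITM1 and IFITM3 are above 0 at 0 h and below 0 at 24 h (IFIT2 with an open symbol at 0 h), and in siELMO1 against siNT, IFIT3 goes from -0.76 to 0.46.

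A difference between 2 responses on the log2 scale is the 24 h difference minus the 0 h difference, so a smaller fold rise can come from a higher start, a lower end or both. The response in siNT was smaller than in Mock for 5 of 7 members and larger for none, where 16% of genes tested had a smaller response and 15% a larger one. For IFIT2 (-1.14, SE 0.20, adjusted p = 3.72e-04) nearly the whole difference lay at 24 h (-1.08) and little at 0 h (0.06). For IFIT3 (-1.51, SE 0.14, adjusted p = 5.08e-07) it was a 24 h difference of -0.93 on top of a start higher by 0.58. For IFIT5 (-0.79, adjusted p = 1.14e-04) and IFITM3 (-0.73, adjusted p = 7.90e-05) the higher start of 0.47 and 0.51 was the larger part. IFITM1 (-1.16, adjusted p = 2.79e-03) had a 0 h difference of 0.64 and a 24 h difference of -0.52. The 0 h difference of IFITM1 was 0.43 without Mock 0 h replicate 1, so neither part is named as the larger. IFIT1 (-0.26, adjusted p = 0.285) and IFITM2 (-0.11, adjusted p = 0.535) did not pass. All 7 results kept their side of the threshold under every alternative tried. The part of cell death in siNT after poly(I:C) in these responses was not tested.

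The response in siELMO1 was larger than in siNT for 5 members and smaller for none, where 16.7% and 17.8% of genes tested had a larger and a smaller response. IFIT3 (1.22, SE 0.14, adjusted p = 3.36e-06) joined a start lower by 0.76 to an end higher by 0.46. The IFIT5 difference (0.80, SE 0.13, adjusted p = 9.67e-05) was almost all start, since the 24 h levels differed by 0.02. IFITM1 (1.22, SE 0.27, adjusted p = 1.86e-03) had a 0 h difference of -0.41 and a 24 h difference of 0.80. IFIT1 (0.55, SE 0.18, adjusted p = 0.0219) and IFIT2 (0.56, SE 0.20, adjusted p = 0.0417) were near the threshold. Both calls were lost with limma-voom. IFIT1 was lost without siNT 0 h replicate 3, siELMO1 0 h replicate 3, siNT 24 h replicate 2 or siELMO1 24 h replicate 3 (0.42 to 0.49, adjusted p from 0.0513 to 0.0727). IFIT2 was lost when any 1 of 11 libraries was left out: all 3 of Mock and siELMO1 at 0 h, siNT 0 h replicates 1 and 2, siNT 24 h replicates 1 and 2, or siELMO1 24 h replicate 3 (0.41 to 0.60, adjusted p from 0.0526 to 0.120). IFITM2 (-0.23) and IFITM3 (-0.11) did not pass, and without siELMO1 0 h replicate 1 both were called smaller (-0.33, adjusted p = 0.0163, and -0.22, adjusted p = 0.0405).

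The response in siELMO1 was smaller than in Mock for 3 members and larger for none, where 14.6% and 13.8% of genes tested had a smaller and a larger response. IFITM3 (-0.84, SE 0.11, adjusted p = 2.20e-05) was mostly start, with a 0 h level higher by 0.71. IFIT2 (-0.58, SE 0.20, adjusted p = 0.0435) and IFITM2 (-0.34, SE 0.12, adjusted p = 0.0370) were near the threshold. IFIT2 was lost when any Mock library, siNT 0 h replicate 2, siELMO1 0 h replicates 2 or 3 or siELMO1 24 h replicates 1 or 2 was left out (-0.61 to -0.50), and also with DESeq2 (adjusted p = 0.0567) and limma-voom (adjusted p = 0.107). IFITM2 was lost when any Mock 0 h library, Mock 24 h replicates 2 or 3, siELMO1 0 h replicates 2 or 3 or siELMO1 24 h replicates 1 or 3 was left out (-0.34 to -0.26). IFIT1 (0.30), IFIT3 (-0.28), IFIT5 (0.01) and IFITM1 (0.06) did not pass, although IFIT3 did without siNT 24 h replicate 3 (adjusted p = 0.0260).

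The genes that act before and beside the 2 families were counted in lists. To set beside them, 30.7%, 28.6% and 28% of all genes tested rose at 24 h in Mock, siNT and siELMO1. At 24 h 24.9% were lower and 25.2% higher in siNT than in Mock. In siELMO1 26% were higher and 26.5% lower than in siNT, and 21.6% were higher and 22% lower than in Mock. Of 11 genes of double-stranded RNA sensing, 9 rose and 1 fell in Mock at 24 h, and 10 rose in siNT and in siELMO1. Against Mock at 24 h siNT had 7 of 11 lower and 1 higher. Against siNT at 24 h siELMO1 had 7 higher and none lower, with the largest difference in RIGI, the gene of RIG-I (1240 CPM in Mock, 639 in siNT and 1294 in siELMO1, siELMO1 against siNT log2 1.02, adjusted p = 7.04e-07). IFIH1, the gene of MDA5, followed the same order as the IFIT genes, with 326 CPM in Mock, 212 in siNT and 301 in siELMO1. TLR3 stood at 148, 125 and 156 CPM, where siNT did not pass against Mock (adjusted p = 0.0645) and siELMO1 did against siNT (adjusted p = 0.0182). IRF7, which amplifies interferon genes, had 351 CPM in Mock, 201 in siNT and 251 in siELMO1. Among interferons and their signalling, 10 of 13 genes passed the filter on low counts, and 9, 7 and 9 of them rose at 24 h in Mock, siNT and siELMO1. IFNB1 and IFNL1, among the 10, passed only through 24 h libraries, so the filter fixed the direction of their change. At 24 h siNT had 4 of 10 lower and 2 higher than Mock, and siELMO1 had 4 of 10 higher and 2 lower than siNT. With 10 genes these counts lie close to the shares of all genes and are not read as a result about the list. IFNB1, the gene of interferon beta, had at most 0.06 CPM in any 0 h library. At 24 h it had 20.4, 21.3 and 27.5 CPM in Mock, 1.70, 1.43 and 1.91 in siNT and 5.81, 5.52 and 11.6 in siELMO1. siNT was thus below siELMO1 and siELMO1 below Mock without overlap, and the log2 difference of siNT from Mock was -3.78. Since IFNB1 passed the filter only through libraries where it is high, no test of it is given. STAT2, which carries the interferon signal to the nucleus, stood lower in siNT cells than in Mock cells after poly(I:C) (log2 -0.51, adjusted p = 2.88e-05) and higher in siELMO1 than in siNT (log2 0.51, adjusted p = 2.51e-05). IRF9, its DNA-binding partner, stood at 93.9 CPM in Mock and 97.9 in siNT and was lower in siELMO1 (siELMO1 against siNT log2 -0.97, adjusted p = 6.14e-05).

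Of 20 other interferon-stimulated genes, 19 were tested, and CMPK2, with at most 9 counts, was not. All 19 rose in each transfection, with medians of 5.27, 4.57 and 6.04 on the log2 scale. MX2, XAF1, BST2 and RSAD2 stayed under 1 CPM at 0 h and passed the filter only through 24 h libraries. The filter thus fixed the direction of their change, and they are part of these counts and medians. At 24 h 18 of 19 were lower in siNT than in Mock and none was higher (median -0.79, against -0.49 for the members), with the largest difference in OASL (1196 CPM in Mock and 286 in siNT, log2 -2.06, adjusted p = 2.79e-08). In siELMO1 13 of 19 were higher than in siNT and none was lower (median 0.39, against 0.38). ISG15, a ubiquitin-like modifier, had 762 CPM in Mock, 381 in siNT and 646 in siELMO1 at 24 h. MX1, an antiviral GTPase, had 11.4 CPM in Mock, 6.00 in siNT and 7.41 in siELMO1. Against Mock, siELMO1 had 1 higher and 4 lower, where 21.6% and 22% of genes tested were higher and lower. The higher one was RSAD2, the gene of the antiviral enzyme viperin (513 against 358 CPM, log2 0.52). It is part of the count, but since it passed the filter only through 24 h libraries, its test is not given. IFITM2 therefore stood outside both lists at 24 h, since it was the only gene among the 7 members and these 19 that was higher in siNT than in Mock at an adjusted p under 0.05. Of 3 feedback genes 2, 2 and 3 rose at 24 h in Mock, siNT and siELMO1. SOCS1, an inhibitor of JAK kinases, was 9.16 CPM in siNT at 0 h against 3.70 in Mock and 2.05 in siELMO1. USP18, which blocks the interferon receptor, was 22.6 CPM in Mock at 0 h against 9.53 in siNT and 10.4 in siELMO1. The 3 genes listed as partners of IFITM proteins, ZMPSTE24 (a membrane protease), ZDHHC20 (a palmitoyl transferase) and VAPA (an endoplasmic reticulum protein), all fell at 24 h in each transfection, by 0.12 to 0.61 on the log2 scale. Such falls were common. With single libraries left out in turn, 4127 to 4703 of 15167 genes tested fell in Mock. In siNT 3367 to 4077 fell, and in siELMO1 3667 to 4136. All 3 were higher in siNT than in Mock at 0 h and at 24 h, as were 27.6% and 25.2% of genes tested.

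**Figure D5:**
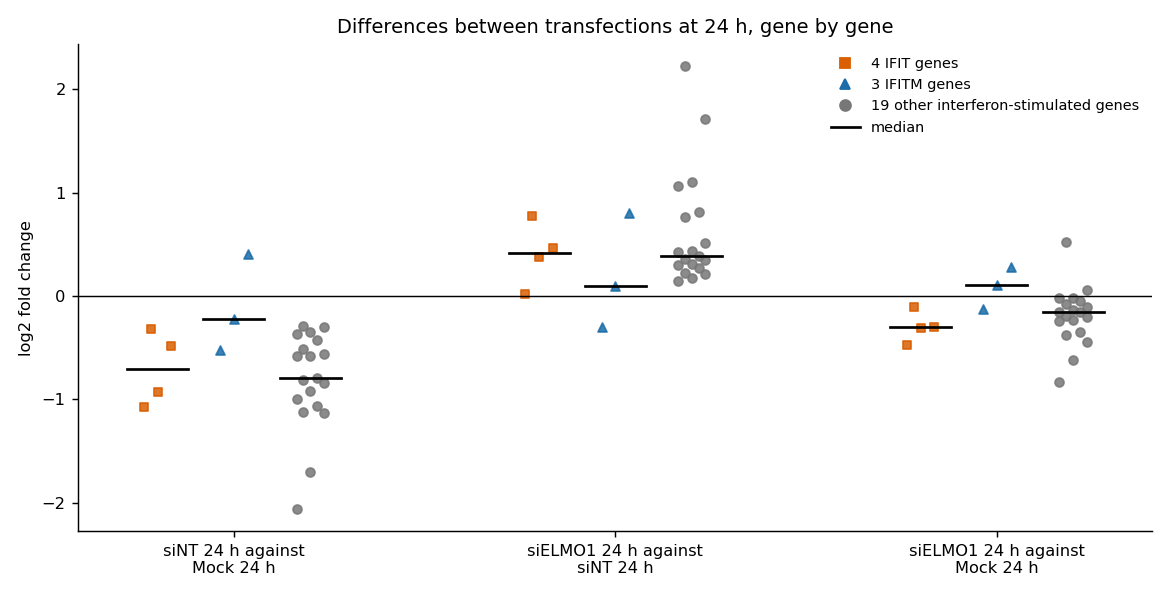
log2 fold changes at 24 h between transfections for the 4 IFIT genes, the 3 IFITM genes and 19 other interferon-stimulated genes, each point a gene and each line the median of its set. In siNT against Mock the 19 genes and the 4 IFIT genes lie below 0 and IFITM2 lies above (0.41), and in siELMO1 against Mock the points gather around 0.

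Across the 18 libraries the members other than IFITM2 ran closely together on log2(CPM + 1), with Pearson r of 0.967 to 0.997 between pairs, and IFITM2 had r of 0.933 to 0.968 with the others. These r are descriptions, since the libraries form a 0 h and a 24 h set and share the treatment. Among 13613 genes with a mean of at least 1 CPM, those most like IFIT1 were MX2, IFI6 and IFIH1 (r = 0.999, 0.999 and 0.998). Those most like IFIT3 were HERC6, TRIM21 and TDRD7, and those most like IFIT2 were GBP4, LAP3 and RELB. IFIT5 was most like HELZ2, DTX3L and PLSCR1, and IFITM1 most like CASP1, PARP10 and HLA-B. IFITM3 was most like PML, MYD88 and N4BP1 (r = 0.998, 0.997 and 0.993), and IFITM2 most like PRKD2 (r = 0.986), IL1B (r = 0.980) and CYB5R2 (r = 0.972).

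Other genes named IFIT or IFITM had few counts. IFIT1B had 0 to 3 counts in 0 h libraries and 16 to 54 in 24 h libraries. It passed the filter on low counts through 24 h libraries, where it is high, so no test of it is given. IFITM5 and IFITM10 had at most 3 and 19 counts, and the pseudogenes of both families at most 61. Some member counts can hold reads of neighbours. LIPA runs through the IFIT cluster on the opposite strand with 4507 to 11223 counts, its exons overlap those of IFIT2 and IFIT3, and whether the counting used strand is not given in the sources used here. No stretch of 100 bases of the leading IFIT1, IFIT2, IFIT3 or IFIT5 transcript occurs in another gene. For IFITM1-229 49.6% of such stretches also occur elsewhere, most of them in a read-through gene that joins IFITM2 and IFITM1 and had 14 to 259 counts, and 8.20% of those of IFITM3-201 also occur in IFITM1. The smallest count behind any member value was 186, for IFITM1 in siELMO1 at 0 h.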

How the data were processed

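RNA-seq of 18 EA.hy926 libraries was analysed from the deposited matrices. Per the paper's methods the authors aligned paired reads to GRCh38 with STAR, quantified genes and transcripts of Gencode v44 with StringTie and made the deposited estimated counts with the prepDE script, which derives whole numbers from coverage. Tool versions, the read length given to that script and strand use are not given in the sources used here. Sample groups came from the titles.

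A gene was tested if its counts summed to 100 or more and 1 library or more reached 1 CPM (15167 genes, all 7 members included), and libraries were scaled by TMM (factors 0.958 to 1.06). One edgeR 4.0.16 quasi-likelihood fit (R 4.3.3) over 6 group means gave 12 comparisons, 3 of them between responses, with Benjamini-Hochberg adjustment over all genes tested. Genes were called at adjusted p under 0.05, and the biological coefficient of variation was 12.2%. SE is the log2 fold change divided by the square root of F. The p-values measure the spread between these cultures of a single line. Levels per kb use the merged exons of each gene.

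Same-numbered libraries deviated together in all 3 pairs only between siNT and Mock at 24 h (r of 0.20 to 0.34 over 9644 genes), where a replicate block changed no call. Alternatives were DESeq2 1.42.0, limma-voom (limma 3.58.1), library totals, upper-quartile factors, other filters, fewer groups, the block and leaving out each library. The procedure was tested on simulated data. The members and gene lists were chosen with earlier results of these data known. Named were the 7 members, ELMO1, other IFIT and IFITM symbols, for each member the 3 genes of highest Pearson r, and from the lists 11 listed genes plus those of largest or smallest difference. Some listed genes were also named for their place at the filter on low counts. SOCS1, RSAD2 in siELMO1 against Mock, and the example values of the lists were picked after their values were seen. Some listed genes are not reported here.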

Additional observations from a re-analysis of the deposited data

Results flagged for a closer look

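The responses to poly(I:C) differed between transfections by a test of the difference itself in 13 cases (edgeR, adjusted p under 0.05), all on the log2 scale. Set against Mock, the response in siNT was smaller for IFIT3 (-1.51), IFITM1 (-1.16), IFIT2 (-1.14), IFIT5 (-0.79) and IFITM3 (-0.73). Set against siNT, the response in siELMO1 was larger for IFIT3 (1.22), IFITM1 (1.22), IFIT5 (0.80), IFIT2 (0.56) and IFIT1 (0.55). Here IFIT2 and IFIT1 were near the threshold and lost their call with limma-voom or without some single libraries. Set against Mock, the response in siELMO1 was smaller for IFITM3 (-0.84), IFIT2 (-0.58) and IFITM2 (-0.34). Of these, IFIT2 and IFITM2 were near the threshold and lost their call without some single libraries. The first set and the second share the siNT libraries, so they are not independent. The part of cell death in siNT after poly(I:C) in both sets was not tested. Groups of 3 were not tested for outlying member values. Replicate 1 of siELMO1 at 0 h stood apart from replicates 2 and 3 over all genes, and without it the smaller siELMO1 than siNT responses of IFITM2 (-0.33) and IFITM3 (-0.22) were also called.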

How the results depend on the processing

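Each of 84 member fold changes was recomputed under 26 alternatives (8 other methods and 18 libraries left out in turn), and 60 kept their direction and side of the threshold under all of them, including all 21 rises at 24 h. Under other methods, the sign turned for IFIT2 in siNT against Mock at 0 h (-0.000451) and IFIT5 in siELMO1 against siNT at 24 h (-0.0284) with library totals, and for IFIT5 in the siELMO1 against the Mock response with limma-voom (-0.00598), all of them differences that never passed the test. With library totals every gene's Mock response is lower by 0.12, so that the median over all genes is -0.11. Numbers of members called moved as follows. Higher in siELMO1 than siNT at 0 h were 0 with no filter on low counts and with only the libraries compared. Lower in siELMO1 than Mock at 0 h were 0 with limma-voom and 3 with library totals and with only the libraries compared, where 3 were also higher. Higher in siELMO1 than Mock at 24 h was 1 with only the libraries compared. Larger siELMO1 than siNT responses were 3 with limma-voom, where IFIT1 and IFIT2 were lost. Smaller siELMO1 than Mock responses were 1 with library totals and with no filter, where the genes with a smaller response numbered 1322 with no filter and 2209 with the filter. The causes were not tested.

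With single libraries left out, the number of members ranged from 0 to 1 (higher, siELMO1 against siNT at 0 h), 1 to 3 (lower, siELMO1 against Mock at 0 h), 3 to 5 (larger siELMO1 than siNT response), 0 to 2 (smaller siELMO1 than siNT response) and 1 to 4 (smaller siELMO1 than Mock response). Signs turned within -0.0164 to 0.125 for IFIT2 in siNT against Mock at 0 h, -0.146 to 0.0268 for IFITM2 in siELMO1 against siNT at 0 h, -0.0531 to 0.0874 for IFIT5 in siELMO1 against siNT at 24 h, and -0.0735 to 0.113 for IFIT5 and -0.119 to 0.246 for IFITM1 in the siELMO1 against the Mock response. With the replicate block the number of members called lower in siELMO1 than in Mock at 24 h was 3 in place of 2, since IFIT2 passed (-0.32, adjusted p = 0.0415). That pairing rests on a number alone, and the block changed no other member call.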
